A study of Mus musculus with 8 samples.

Results

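The 35 genes described here act in G2 and mitosis, when a cell that has copied its DNA condenses its chromosomes, builds a spindle and divides. They were taken by symbol and include cyclins, mitotic kinases, checkpoint and kinetochore proteins, spindle motors and cytokinesis factors, and all 35 were found among the 27179 genes of the deposited count table. Polyadenylated RNA was sequenced from the cerebral cortex of 8 mouse embryos, 1 library an embryo. In 4 of them the Taf8 status is given as Taf8 -/lox, that is, a null and a lox allele, and these are called Taf8-deleted, as in the series. The other 4 are Taf8 +/+ and are called wild-type. TAF8 is part of TFIID, a general transcription factor that sits on core promoters and helps to bring in RNA polymerase II. The sources used here give neither the Cre driver nor the embryonic day.

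Mitotic genes are transcribed in waves. In dividing mammalian cells many of them are kept off in quiet and early-cycle cells by the DREAM complex and switched on in G2 by B-MYB, FOXM1 and the CCAAT-binding factor NF-Y. DREAM and B-MYB complexes meet the promoter at a short element called the CHR. In the embryonic cortex the dividing cells are radial glia at the ventricle and the intermediate progenitors they produce, and neurons have left the cycle. In bulk tissue, fewer dividing cells and less RNA per dividing cell cannot be told apart.

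The promoters of these genes carried the letters of that wave. RefSeq promoter windows (GRCm38.p6, 250 bases before to 50 bases after the annotated start) were at hand for 28 of the 35 genes, with 29 windows because Bub3 has a pair. Aurkb, Ccna2, Incenp, Kif20a, Pbk, Spc24 and Tpx2 had none. The CHR letters TTTGAA, read on both strands, stood in 72.4% of the 29 windows and in 17.9% of all 32851 windows of the table. The CCAAT letters, also on both strands, stood in 75.9% of the windows against 37.4% of all, and at least 2 copies in 58.6% against 11.7%. Both elements were present in 62.1% against 6.95%. The TATA box, with the letters TATAAA, is the classical landing site of the TFIID subunit TBP. Read on both strands of the whole window, these letters were found in 1 of the 29 windows, or 3.45% against 13.6% of all. That match, in Kif2c, began at -228, counted in bases from the start. In these 29 windows 1 pair of matches to different patterns shared bases. A match says that the letters are there, not that a factor binds.

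The stretches of 150 bases before the start are shown for the 2 genes called lower and the 2 called higher in Taf8-deleted cortex with the smallest adjusted p among those with a window, so that the promoters of genes that moved in opposite directions can be set side by side. Capitals mark CHR, CCAAT or TATA letters on either strand, and each sequence runs 5′ to 3′ along the gene's own strand.
Ube2c, called lower, chr2:164769779-164769928, plus strand: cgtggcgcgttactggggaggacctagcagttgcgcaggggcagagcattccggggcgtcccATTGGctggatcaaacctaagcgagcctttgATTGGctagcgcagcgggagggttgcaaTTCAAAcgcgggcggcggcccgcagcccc
Hmmr, called lower, chr11:40733438-40733587, minus strand: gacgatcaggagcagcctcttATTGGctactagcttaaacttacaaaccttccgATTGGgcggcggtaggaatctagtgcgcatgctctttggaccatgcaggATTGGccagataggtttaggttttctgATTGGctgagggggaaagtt
Ndc80, called higher, chr17:71526858-71527007, minus strand: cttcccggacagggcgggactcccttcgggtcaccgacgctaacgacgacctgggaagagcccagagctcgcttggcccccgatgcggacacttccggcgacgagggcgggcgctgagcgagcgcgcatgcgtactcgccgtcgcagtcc
Cenpe, called higher, chr3:135212413-135212562, plus strand: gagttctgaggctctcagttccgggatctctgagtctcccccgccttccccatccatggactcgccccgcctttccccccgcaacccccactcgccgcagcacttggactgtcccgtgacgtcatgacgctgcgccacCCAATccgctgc
Ube2c holds 6 CCAAT copies in its whole window; in the printed stretch a pair of inverted ones at -88 and -57 is followed by an inverted CHR at -29, counted in bases from the start. Hmmr holds 5 inverted CCAAT copies in its whole window, 4 of them in the printed stretch, and a CHR at 9 after the start. Ndc80 has no CCAAT letters in its window and a CHR at 30 after the start, and Cenpe has a single CCAAT at -12 and no CHR letters. By call, the CHR letters stood in 7 of 9 windows of genes called lower, 2 of 3 of genes called higher and 12 of 17 of genes not called. The CCAAT letters stood in 7, 2 and 13 of these windows, and at least 2 copies in 6, 0 and 11. Anln and Mad2l1, both called lower, had no CCAAT letters in their windows.

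**Figure D1:**
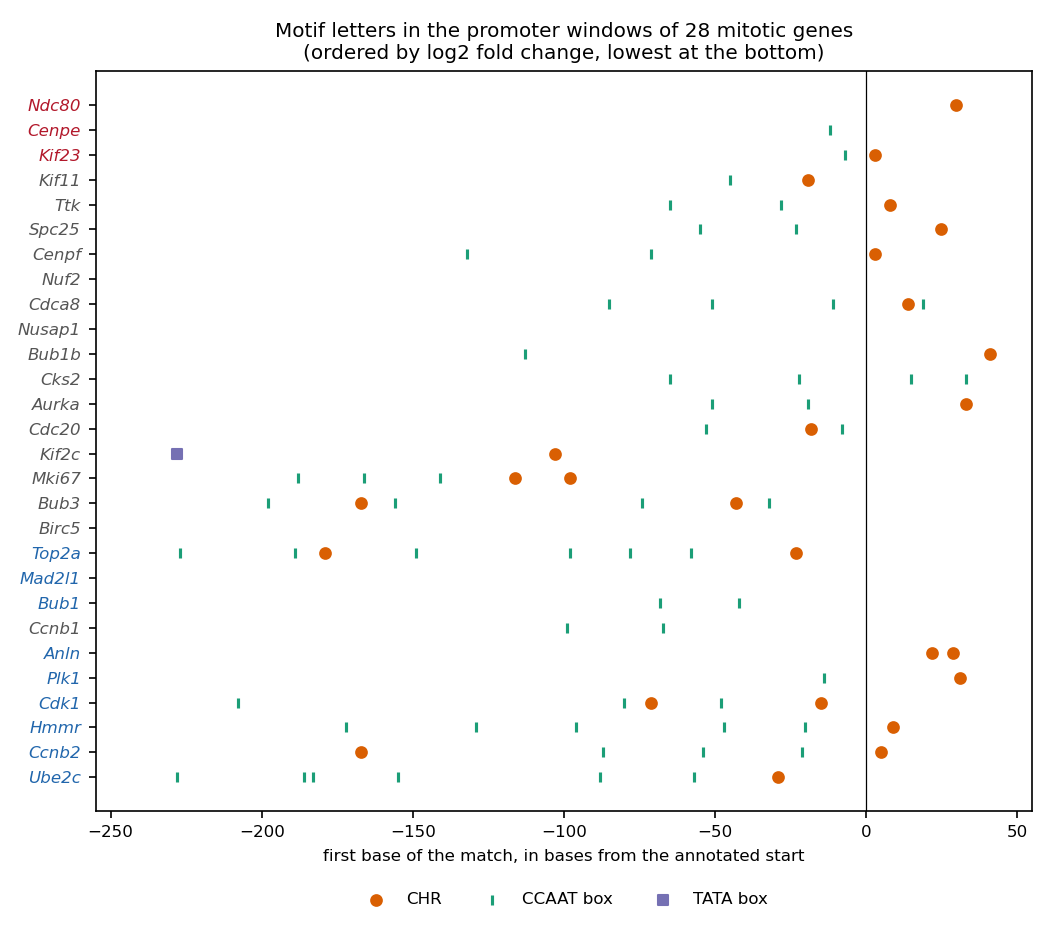
Each row is 1 of 28 mitotic genes, ordered by log2 fold change with the lowest at the bottom, and the horizontal axis gives the first base of a CHR, CCAAT or TATA match in bases from the annotated start. Names in red were called higher, names in blue lower and names in grey were not called in Taf8-deleted cortex; most rows hold both a CHR and a CCAAT box, and the single TATA match is in Kif2c.

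Libraries held 26312505 to 65523487 counts, and each of the 35 genes had between 149 and 34201 counts in every library, so all 35 passed the filter on low counts. Levels are CPM, counts scaled to a common library size, with TMM, a factor per library that centres the typical gene at no difference. Such levels are relative to the other RNA of a library and do not give the amount of RNA per cell. Taf8 itself stood at 0.643 ± 0.149 CPM in deleted and 34.8 ± 2.75 CPM in wild-type cortex (SD, n = 4 each; log2 fold change -5.75, adjusted p = 1.45e-09 by edgeR's quasi-likelihood test), and the groups did not overlap. Wild-type embryos 1 to 3 have animal numbers that begin with the same part (408.4, 408.5 and 408.6), and no first part occurs in both groups. A litter or batch that it may mark therefore cannot be told apart from the genotype, and p-values measure the spread between these embryos.

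Wild-type replicate 3 stood apart from the other wild-type libraries. Of the 35 genes, 30 had their lowest wild-type level in that library. Their summed level was 3572 CPM there against 4131, 4095 and 3912 CPM in wild-type replicates 1, 2 and 4. In the same library, the deepest of the 8, the 14 neuron markers summed to 8661 CPM, against 7262 to 7411 CPM in the other wild-type libraries, and the 14 radial glia markers to 3325 CPM, against 3427 to 3603 CPM. The part of these marker levels in the mitotic gene levels was not tested. For the 35 genes, every call that changes without this library is given, and for the other lists the counts are given with and without it.

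Most of the mitotic genes differed little in relative level with Taf8 status. Of the 35, 4 were called higher and 10 lower, at a Benjamini-Hochberg adjusted p under 0.05 over all 15649 genes tested. That is 40.0% of the genes, where 59.2% of all genes tested were called, 29.5% higher and 29.6% lower. The median log2 fold change was 0.00, and its median size without sign was 0.11, against 0.01 and 0.27 over all genes tested. One gene, Ube2c, passed the test with a change of at least 1.5-fold, which 20.2% of all genes tested did. The groups did not overlap in 10 of the 35, against 53.6% of all genes tested. Without wild-type replicate 3 the 14 calls stayed and 4 genes joined the lower ones, giving 4 higher and 14 lower. That is 11.4% higher and 40% lower, against 30% and 30.1% of the 15736 genes tested in that fit. When counts were scaled by library size alone the split was 6 higher and 8 lower, and over all genes 5257 higher and 4104 lower.

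Summed over the 35 genes, the level was 3787, 3781, 3830 and 3864 CPM in the deleted libraries and 4131, 4095, 3572 and 3912 CPM in the wild-type libraries. The deleted sums lay close together, inside the wild-type range. Only wild-type replicate 3 lay below them, and every other wild-type sum lay above them. Radial glia markers summed to 4205 ± 158 CPM in deleted and 3488 ± 136 CPM in wild-type cortex, and neuron markers to 5578 ± 312 and 7680 ± 658 CPM (SD, n = 4 each), with no overlap between groups in either. Of the 14 radial glia markers 7 were called higher and 4 lower. The largest terms of their sum, Vim (1226 CPM in deleted against 809 CPM in wild-type cortex) and Nes (979 against 515 CPM), both rose. The sum leans on these genes. In mean log2 CPM over all 14 the groups overlapped, at 7.24 to 7.34 in deleted and 7.11 to 7.26 in wild-type libraries. The 4 called lower were Fabp7 (336 against 480.3 CPM), Ptprz1 (287 against 432 CPM), Slc1a3 (116 against 145 CPM) and Tnc (48.0 against 86.0 CPM). Of the 14 neuron markers 0 were called higher and 13 lower. The part of these markers in the mitotic gene results was not tested.

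**Figure D2:**
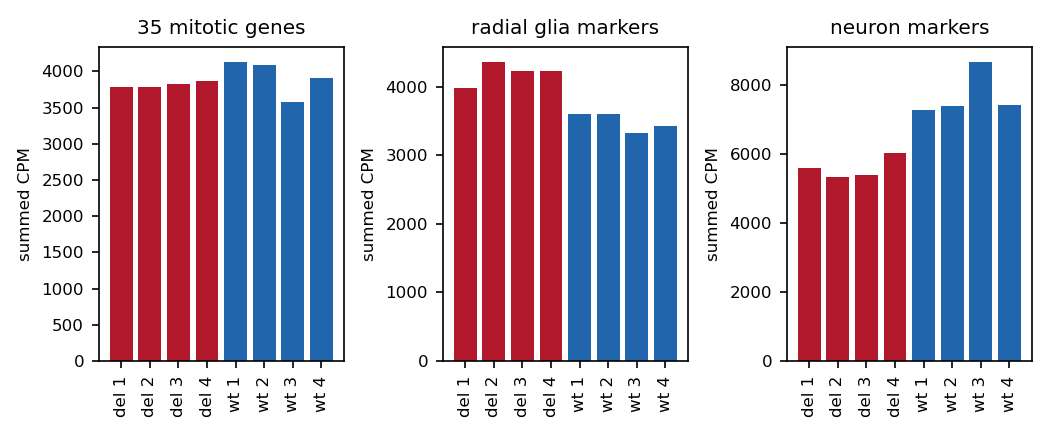
Bars give the summed CPM in each library for the 35 mitotic genes, 14 radial glia markers and 14 neuron markers, with Taf8-deleted libraries (del, red) left of wild-type libraries (wt, blue). The mitotic sums of the deleted libraries, 3781 to 3864 CPM, lie inside the wild-type range of 3572 to 4131 CPM. Only wild-type replicate 3 lies below them. That library has the lowest mitotic and the highest neuron sum among the wild-type libraries.

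The largest difference was in Ube2c (Entrez gene 68612, chromosome 2, 164769929 to 164772902). Its product is the E2 enzyme that hands ubiquitin to the anaphase-promoting complex (APC/C), which marks cyclin B and securin for destruction so that anaphase can start. Ube2c had 59.5, 61.4, 62.9 and 65.7 CPM in deleted libraries, against 119.8, 121.0, 91.1 and 123.0 CPM in wild-type libraries. The groups did not overlap, and even the low wild-type replicate 3 lay above every deleted library. The level was 1.82-fold lower in deleted cortex (log2 fold change -0.86, SE 0.09, adjusted p = 1.39e-05 by edgeR). Per length, Ube2c ranked first of the 35 in wild-type cortex at 122 ± 16.3 RPKM (CPM per kilobase of the counted gene length), and stood at 67.0 ± 2.82 RPKM in deleted cortex, level with Bub3. Cdc20, the activator that brings substrates to the APC/C, was not called. Cdc20 averaged 98.2 ± 5.92 CPM in deleted and 98.2 ± 14.4 CPM in wild-type cortex, and the 95% interval of its log2 fold change ran from -0.21 to 0.21.

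The engine of mitotic entry is CDK1 bound to cyclin A2 or a B-type cyclin. Cdk1 (chromosome 10, 69335146 to 69352912) had 90.3, 93.3, 98.2 and 91.9 CPM in deleted libraries, against 124.0, 123.0, 97.8 and 120.3 CPM in wild-type libraries. Cyclin B2, Ccnb2 (chromosome 9, 70407689 to 70421554), had 47.5 to 51.9 CPM in deleted libraries, against 69.0, 65.8, 51.6 and 64.6 CPM in wild-type libraries. In both genes wild-type replicate 3 lay within the deleted range and the other 3 wild-type libraries lay above it. Cdk1 fell by 0.32 (SE 0.07, adjusted p = 0.0032) and Ccnb2 by 0.33 on the log2 scale (SE 0.08, adjusted p = 0.0048). Cyclin B1, Ccnb1, averaged 36.8 ± 4.78 CPM in deleted and 41.8 ± 4.8 CPM in wild-type cortex and was not called (adjusted p = 0.142), but without deleted replicate 4, its highest deleted library, it was (log2 fold change -0.29, adjusted p = 0.019). Ccna2 averaged 211 ± 9.13 and 201 ± 7.73 CPM and was not called, with an interval of -0.03 to 0.17. With library size alone as the scaling Ccna2 was called higher (log2 fold change 0.11, adjusted p = 0.043). Cks2, the small CDK-binding subunit, was the least abundant of the 35, at 5.73 ± 0.861 CPM in deleted and 5.64 ± 1.11 CPM in wild-type cortex, and its interval of -0.33 to 0.40 was the widest.

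Among the kinases that drive entry and spindle assembly, Pbk and Plk1 fell. Pbk, a mitotic serine/threonine kinase (chromosome 14, 65805911 to 65817822), had 55.9, 56.7, 60.4 and 60.7 CPM in deleted libraries, against 76.0, 82.4, 72.1 and 76.4 CPM in wild-type libraries. The groups were well apart, and Pbk fell by 0.39 on the log2 scale (SE 0.05, adjusted p = 6.54e-05). Polo-like kinase 1, Plk1, had 53.1, 68.0, 60.4 and 60.7 CPM in deleted libraries, against 82.8, 79.7, 59.6 and 77.3 CPM in wild-type libraries. Its call (log2 fold change -0.30, adjusted p = 0.026) was lost without deleted replicate 1 (adjusted p = 0.0627) and without wild-type replicate 1 (0.064), 2 (0.058) or 4 (0.0501). Aurora kinase A, Aurka, averaged 51.3 ± 2.34 CPM in deleted and 50.6 ± 5.2 CPM in wild-type cortex and was not called. Its spindle activator Tpx2 averaged 172 ± 8.3 and 188 ± 17.3 CPM, and was called lower without wild-type replicate 3 (log2 fold change -0.19, adjusted p = 0.0039).

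The chromosomal passenger complex, which places Aurora B on centromeres and later on the central spindle, had 0 of 4 genes called. Log2 fold changes were -0.07 for Aurkb (interval -0.24 to 0.10), -0.07 for Birc5 (-0.24 to 0.11), 0.01 for the scaffold Incenp (-0.14 to 0.16) and 0.04 for Cdca8, which encodes borealin (-0.12 to 0.20). These intervals leave out a change as large as that of Ube2c. Without wild-type replicate 3, which was the lowest of the 8 libraries in all 4 genes, Aurkb and Birc5 were called lower at -0.15 each (adjusted p = 0.00433 and 0.0173).

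The spindle checkpoint holds anaphase back until every chromosome is attached. Bub1, the kinase that seeds it at kinetochores, had 66.0, 63.1, 68.6 and 71.7 CPM in deleted libraries, against 74.7, 80.1, 73.3 and 76.3 CPM in wild-type libraries. Mad2l1, the APC/C inhibitor MAD2, had 46.8, 45.1, 48.9 and 49.1 CPM in deleted libraries, against 56.0, 53.0, 51.0 and 52.5 CPM in wild-type libraries. In both genes every deleted library lay below every wild-type library, by small steps, and the log2 fold changes were -0.17 (adjusted p = 0.00959) and -0.16 (adjusted p = 0.0104). Bub1b, which encodes BUBR1, Bub3 and the kinase gene Ttk were not called, at 0.03, -0.07 and 0.08. Without wild-type replicate 3 Bub3 was called lower (-0.09, adjusted p = 0.0308).

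In the outer kinetochore, which grips spindle microtubules, 2 of 6 genes rose and 0 fell, or 33.3% higher, near the 29.5% of all genes tested that were called higher. Ndc80 (chromosome 17, 71496100 to 71526857), the namesake of the 4-part complex that binds the microtubule, had 45.1, 45.7, 45.3 and 46.2 CPM in deleted libraries, against 37.7, 36.6, 35.1 and 38.7 CPM in wild-type libraries. Cenpe (chromosome 3, 135212563 to 135273540), the kinesin that carries chromosomes to the spindle equator, had 138.0, 131.0, 131.0 and 132.0 CPM in deleted libraries, against 117.0, 113.0, 107.0 and 109.0 CPM in wild-type libraries. In both genes all deleted libraries lay above all wild-type libraries. Ndc80 rose 1.23-fold (log2 fold change 0.30, SE 0.04, adjusted p = 0.000122) and Cenpe 1.19-fold (log2 fold change 0.25, SE 0.04, adjusted p = 0.000321). The other complex members Nuf2, Spc24 and Spc25 and the corona protein gene Cenpf were not called, with log2 fold changes of 0.05, 0.14, 0.07 and 0.07. Spc24 was called higher without wild-type replicate 4 (log2 fold change 0.18, adjusted p = 0.04), which had its highest wild-type level. All 6 values were positive, as were those of 7991 of the 15649 genes tested. The intervals of Nuf2 (-0.04 to 0.14), Spc24 (-0.02 to 0.29), Spc25 (-0.03 to 0.18) and Cenpf (-0.04 to 0.18) included 0. The 6 values were positive under each of the 23 alternative settings too, which draw on the same 8 libraries. Per length, the 4 parts of the NDC80 complex stood at 20.7 RPKM for Ndc80, 27.0 for Nuf2, 22.7 for Spc24 and 44.5 for Spc25 in deleted cortex, and at 16.8, 26.1, 20.6 and 42.3 RPKM in wild-type cortex.

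Kif20a had the largest rise of the 35. It encodes the kinesin MKLP2, which moves Aurora B to the central spindle for cytokinesis. Kif20a had 129.7, 135.0, 137.0 and 132.0 CPM in deleted libraries, against 104.0, 98.0, 78.9 and 99.3 CPM in wild-type libraries. The groups did not overlap and the level was 1.41-fold higher (log2 fold change 0.49, SE 0.07, adjusted p = 0.000223). The annotated spans of Brd8 and Cdc23 overlap that of Kif20a, and the sources used here do not state whether counting used strand. Brd8 averaged 99.6 CPM in deleted and 157 CPM in wild-type cortex, and Cdc23 209 and 205 CPM (adjusted p = 0.427). Kif23, the kinesin of the centralspindlin complex, had 87.4, 85.6, 86.6 and 84.8 CPM in deleted libraries, against 84.2, 75.6, 70.4 and 73.7 CPM in wild-type libraries, a log2 fold change of 0.18 (adjusted p = 0.0118). Anln, the scaffold anillin of the contractile ring, fell, at 46.1 ± 2.42 CPM in deleted and 53.6 ± 3.78 CPM in wild-type cortex (log2 fold change -0.21, adjusted p = 0.0098). Its low wild-type value was again that of replicate 3, at 47.9 CPM.

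Of the spindle genes, Hmmr fell and the other 3 were not called. Hmmr (chromosome 11, 40701388 to 40733464), a spindle-pole protein, had 47.3, 47.8, 47.6 and 47.0 CPM in deleted libraries, against 58.5, 62.1, 57.6 and 58.1 CPM in wild-type libraries. Both groups were tight and apart, with a log2 difference of -0.32 (SE 0.04, adjusted p = 4.51e-05). Kif11, the motor that pushes spindle poles apart, averaged 158 ± 1.66 CPM in deleted and 147 ± 10.3 CPM in wild-type cortex; the groups did not overlap, but it missed the threshold (adjusted p = 0.0912) and passed it, as higher, with upper-quartile scaling (log2 fold change 0.14, adjusted p = 0.0383), library size alone (0.15, adjusted p = 0.0307) or the 408 embryos summed (0.12, adjusted p = 0.02). Kif2c, which takes microtubules apart at centromeres, had a log2 fold change of 0.00 (interval -0.15 to 0.16), and the microtubule bundler Nusap1 one of 0.03 (interval -0.20 to 0.26).

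The chromosome genes Mki67 and Top2a are the usual stains and signatures of cycling cells. Mki67, which encodes the Ki-67 coat of mitotic chromosomes, had 481.0, 396.0, 424.0 and 432.0 CPM in deleted libraries, against 476.0, 468.0, 424.0 and 409.0 CPM in wild-type libraries. The groups lay on top of each other (log2 fold change -0.04, interval -0.18 to 0.11, adjusted p = 0.667). Top2a, the topoisomerase that untangles sister chromatids, averaged 527 ± 8.13 CPM in deleted and 570.0 ± 26.2 CPM in wild-type cortex, a log2 fold change of -0.11 (adjusted p = 0.0313). That call was lost without wild-type replicate 1 (adjusted p = 0.0646) or 2 (adjusted p = 0.056), with upper-quartile scaling (adjusted p = 0.0913), with library size alone (adjusted p = 0.161) and with a replicate block (adjusted p = 0.0849), and in 11 of the 23 alternative settings in all. Per length Top2a ranked first of the 35 in deleted cortex, at 101 ± 1.56 RPKM, and Cks2 and Anln were the lowest in both groups, at 8.26 and 8.51 RPKM in deleted and 8.13 and 9.89 RPKM in wild-type cortex.

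**Figure D3:**
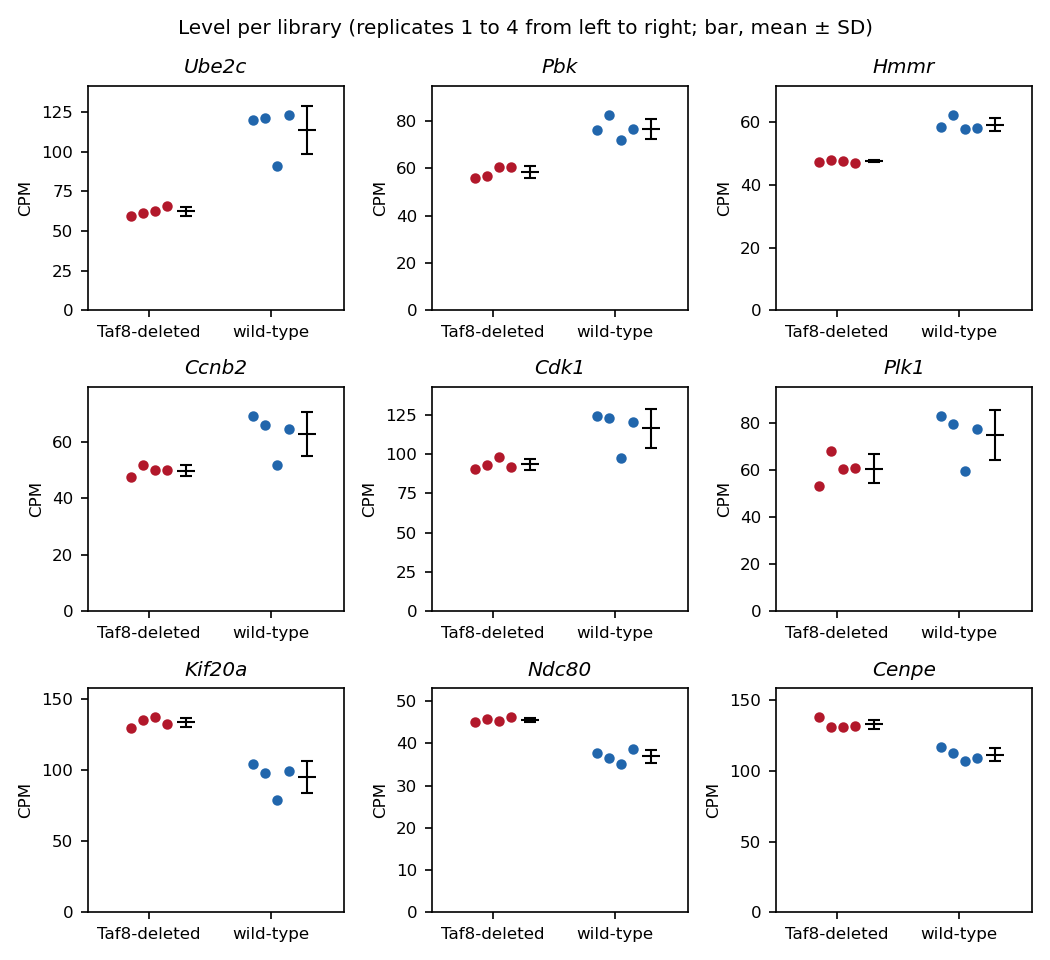
CPM of 9 mitotic genes in each library, Taf8-deleted in red left of wild-type in blue, with replicates 1 to 4 from left to right and the mean ± SD (n = 4) as a black bar. In Cdk1, Ccnb2 and Plk1 wild-type replicate 3 lies within the range of the deleted libraries, while in Ube2c, Pbk, Hmmr, Kif20a, Ndc80 and Cenpe the groups do not overlap.

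Of the 10 genes called lower, 5 had groups that overlapped: Ccnb2, Cdk1, Plk1, Anln and Top2a. In each of these wild-type replicate 3 was the wild-type library within the deleted range. Ube2c, Pbk and Kif20a were called in the same direction under each of the 23 alternative settings, and none of the 14 called genes changed direction under any of them. When deleted replicate 4 was the only deleted library, 5 of the 14 calls stayed. With the summed 408 embryos as a single sample 13 stayed, and Top2a was lost (adjusted p = 0.0524). Over all genes that fit gave 4364 higher and 4415 lower, against 4624 and 4633 in the main fit.

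**Figure D4:**
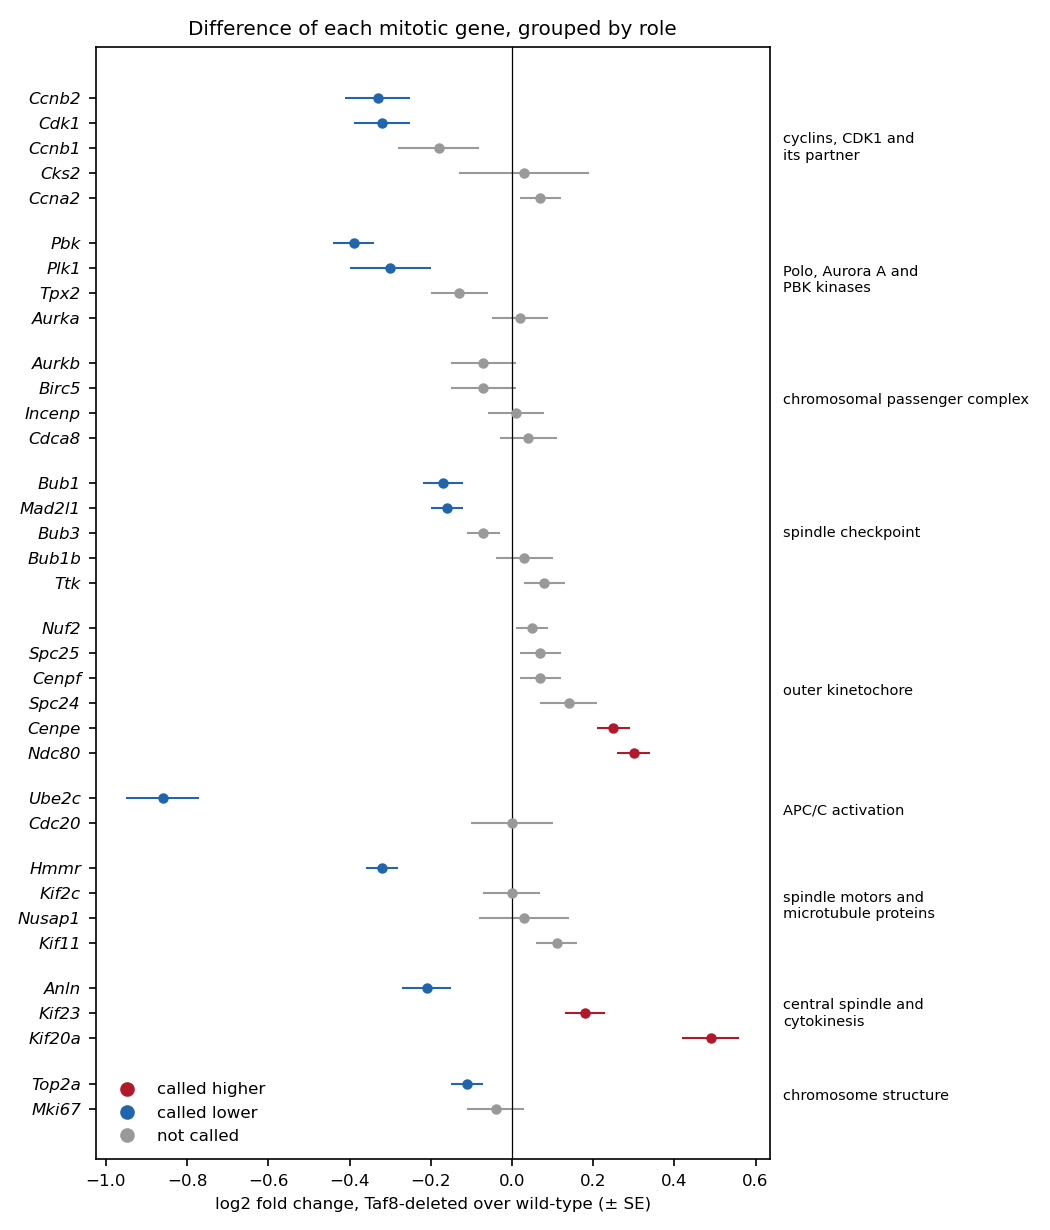
Log2 fold change of each of the 35 genes, Taf8-deleted over wild-type, with its SE, grouped by role, in red where called higher, in blue where called lower and in grey where not called. Outer kinetochore genes lie to the right of 0, from 0.05 to 0.30, passenger complex genes within 0.07 of it, and Ube2c at -0.86 is the farthest from 0.

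Markers of other cells were counted in the same way, and are set beside the 29.5% of all genes tested called higher and 29.6% called lower. Their lists were chosen with earlier results of these data known, so the counts only describe these lists. Endothelial and pericyte markers were called higher in 13 of 13 genes tested, or in 10 of 13 without wild-type replicate 3. Of 12 microglia and macrophage markers 6 were called higher and 1, Cx3cr1, lower (log2 fold change -0.38, adjusted p = 0.00183), and of 9 red blood cell markers 5 were called higher and 0 lower. Meningeal fibroblast markers were called higher in 6 of 11 (5 without wild-type replicate 3), and they summed to 83.2, 139.8, 159.0 and 40.5 CPM in the deleted libraries and 46.4, 46.2, 34.0 and 59.1 CPM in the wild-type libraries. Deleted replicate 4 thus had a level within the wild-type range. Over all genes tested, calls with the meningeal level as a covariate went from 4624 to 3912 higher and from 4633 to 3940 lower. In that fit 10 of the 14 mitotic calls stayed, and 4 were lost with log2 fold changes close to those without the covariate. These were Bub1 (-0.14, adjusted p = 0.0761), Mad2l1 (-0.15, adjusted p = 0.0596), Kif23 (0.16, adjusted p = 0.062) and Top2a (-0.11, adjusted p = 0.0841). Intermediate progenitor markers went both ways, with 6 of 12 called higher (5 without wild-type replicate 3) and 5 lower. The part of the other marker levels in the mitotic results was not tested.

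The wider mitotic machinery, 133 further genes in 6 lists, had 23 genes called higher and 42 lower, with a median log2 fold change of -0.05. That is 48.9% called, against 59.2% of all genes tested (29.5% higher and 29.6% lower). Without wild-type replicate 3 the split was 23 and 56, and over all genes tested 4721 higher and 4729 lower. These 6 lists too were chosen with earlier results of these data known. Of 38 other kinetochore and centromere genes 8 were higher and 16 lower, 63.2% in all and near the 59.2% of all genes; without wild-type replicate 3 these were 8 and 19. Zwilch, part of the RZZ complex that recruits dynein, stood at 39.8 ± 3.24 CPM in deleted and 24.5 ± 1.21 CPM in wild-type cortex (log2 fold change 0.71, adjusted p = 6.78e-06), and the inner kinetochore genes Cenpt and Cenpk rose by 0.53 and 0.48. Nsl1, of the MIS12 complex that links the inner kinetochore to NDC80, fell by 0.57 on the log2 scale, and Cenpn and Cenps fell by 0.54 and 0.50. The kinetochore as a whole thus held genes that moved both ways.

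Among 17 APC/C subunits and regulators 7 were higher and 3 lower, 58.8% in all and again near the share of all genes. Without wild-type replicate 3 these were 6 and 3. The lower ones included the subunit genes Cdc26 and Anapc13. Cdc26 had 17.2, 17.0, 15.7 and 17.4 CPM in deleted libraries, against 33.2, 32.1, 35.2 and 33.8 CPM in wild-type libraries (log2 fold change -0.99, adjusted p = 2.02e-07), and Anapc13 had 14.5, 16.0, 15.3 and 15.3 CPM against 28.6, 25.7, 24.3 and 27.5 CPM (log2 fold change -0.80, adjusted p = 2.65e-06). For both genes the deleted libraries lay far below the wild-type ones, as they did for the E2 gene Ube2c. The third was Anapc5, at -0.22. Anapc7 and Cdc16, which form part of the arm of the complex, rose by 0.27 each.

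Of 21 genes of condensin, cohesin and separase, the rings and the cutter that hold and release chromatids, 1 was higher and 9 lower, or 47.6% called, and 2 and 10 without wild-type replicate 3. The cohesin subunit Rad21 stood at 294 ± 9.5 CPM in deleted and 416 ± 8.9 CPM in wild-type cortex (log2 fold change -0.50, adjusted p = 1.71e-06), and the condensin subunit Smc4 fell by 0.45. Of 15 entry kinases and phosphatases and their regulators 2 were higher and 2 lower, or 26.7% called. Without wild-type replicate 3 these were 2 and 7, with Cdc25b (-0.26), Wee1 (-0.13), Pkmyt1 (-0.16), Cks1b (-0.16) and Nek2 (-0.29), named after their values were seen, joining the lower ones. Bora, the activator of Aurora A toward PLK1, rose by 0.60 on the log2 scale, while the CDK1-activating phosphatase gene Cdc25a fell by 0.55 and Ensa, an inhibitor of the phosphatase PP2A, by 0.65. Of 25 other spindle and cytokinesis genes 4 were higher and 6 lower, or 40.0% called, and 4 and 10 without wild-type replicate 3, with Sapcd2 (0.60), Spag5 (0.56) and Fam83d (0.55) among the higher and Dlgap5 (-0.46) and Kif20b (-0.36) among the lower.

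The factors that read CHR and CCAAT elements, and their partners, made up the last list. Of these 17 genes 1 was higher and 6 lower, or 41.2% called against 59.2% of all genes tested, and 1 and 7 without wild-type replicate 3. Among the lower ones was Tfdp2, a DNA-binding partner of E2F, at 62.5 ± 3.24 CPM in deleted and 92.7 ± 1.55 CPM in wild-type cortex (log2 fold change -0.57, adjusted p = 1.87e-06). Of the 3 NF-Y subunits, Nfyc fell by 0.38 (adjusted p = 9.88e-05) and Nfyb, named after its values were seen, by 0.26 (adjusted p = 0.000697), while Nfya stood at -0.03 (adjusted p = 0.527). Also named after its values were seen, Foxm1, the forkhead activator of the G2 wave, averaged 98.8 ± 1.71 CPM in deleted libraries, against 143.0, 131.0, 104.0 and 127.0 CPM in wild-type libraries. Its lowest wild-type value was again that of replicate 3, above all deleted libraries (log2 fold change -0.35, adjusted p = 0.00315). The B-MYB gene Mybl2 was not called, at -0.21 (adjusted p = 0.122), but was called lower without wild-type replicate 3 (-0.32, adjusted p = 0.00119). E2f5, which encodes an E2F that works in repressor complexes, was the higher one, at 0.23. Lin37 was called lower, at -0.4. Lin9 (0.11), Lin52 (0.03) and Lin54 (-0.07), named after their values were seen, were not called.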

How the data were processed

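RNA of embryonic mouse cerebral cortex was measured in 4 Taf8-deleted and 4 wild-type libraries, grouped by the labels. The deposited values are raw counts per Entrez gene, made by the authors with Subread 1.5.0 and featureCounts on mm10 per the submitters' processing notes, from a stranded poly(A) kit per the labels' protocols. The sources used here do not state the annotation or how strand and multi-mapping reads were treated, so genes that overlap or have near-identical copies are uncertain. Of the 35 genes, 6 overlap another counted gene. Symbols, positions and promoters came from RefSeq tables of GRCm38.p6, the sequence of mm10, and 25275 of 27179 genes had a symbol. Within-group pairs of libraries differed beyond sampling noise (chi-square per degree of freedom from 3.56 to 26.98).

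The test was edgeR's (version 4.0.16, under R 4.3.3; TMM, filterByExpr, quasi-likelihood F-test, group as the only term), run over 15649 genes, with Benjamini-Hochberg adjustment and a threshold of 0.05. The steps were also run on simulated data in which few genes changed, by at least 1.5-fold. Smaller changes, and data with as many changed genes as here, were not simulated. SE is the log2 fold change over the square root of F, and 95% intervals use the t quantile of the fit's degrees of freedom. RPKM is CPM per kilobase of the deposited gene length. The 35 genes and the other lists were chosen with earlier results of these data known. Named beside them are Taf8 and, in each other list, up to 3 called genes per direction with the largest change; some of these are not printed. Alternatives were other scalings, filters, DESeq2 1.42.0, limma 3.58.1 with voom, a replicate block, a meningeal covariate, the 408 embryos summed, libraries left out, a change beyond 1.2-fold and a threshold of 0.01.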

Additional observations from a re-analysis of the deposited data

Results flagged for a closer look

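In 12 cases 1 library of a group lay far from the other 3, with a gap to its nearest neighbour that, as a share of the group's range, passed Dixon's critical value. By chance this happens in about 1 in 20 groups, and 188 groups were examined. Wild-type replicate 3 was the low library in 8 of the 12: Cdk1 at 97.8 CPM, Aurka at 42.9, Aurkb at 57.7, Birc5 at 41.9, Ube2c at 91.1, Anln at 47.9, Fam83d at 22.1 and Hes6 at 125 CPM. Among other wild-type libraries, Spc24 was high in replicate 4 at 30.9 CPM, against 26.5 to 27.2 CPM in the rest, and Cenpf was high in replicate 2 at 179 CPM, against 169.8 to 171 CPM. Deleted replicate 1 was low in Birc5, at 44.1 CPM against 48.8 to 49.6 CPM, and high in Cenpe, at 138 CPM against 131 to 132 CPM.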

How the results depend on the processing

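The 35 genes gave 4 higher and 10 lower calls. Across the libraries left out in turn these were 4 to 5 and 8 to 14, the median log2 fold change ran from -0.070 to 0.041, the other mitotic genes gave 18 to 23 higher and 39 to 56 lower, all genes 3999 to 4721 higher and 4405 to 4729 lower, and the log2 fold change of Taf8 ran from -5.883 to -5.665. The median was 0.044 with library size alone and -0.051 with voom quality weights. With deleted replicate 4 as the only deleted library, whose spread was taken from the wild-type libraries, the counts were 2 higher and 3 lower among the 35, 11 and 14 among the other mitotic genes, and 2171 and 2459 among all genes. In that fit the markers Lum (-0.962), Alas2 (-0.073) and Hbb-bs (-0.012) turned negative, and the cause was not tested. Without wild-type replicate 4 and deleted replicate 1 together 4 were higher and 6 lower, and over all genes 3922 higher and 4079 lower. When the change had to exceed 1.2-fold, 1 higher and 2 lower genes were left of the 35 (Kif20a, Ube2c and Pbk), 8 and 16 of the other mitotic genes, and 2307 and 2328 of all genes. With a replicate block 4 were higher and 9 lower, and over all genes 4115 higher and 4170 lower. The deviations of libraries with the same number had correlations from -0.464 to 0.014, and none matched its own number best. These values gave no sign that the numbers pair the embryos, but 4 libraries a group are too few to exclude it. Depth limits Cks2 most, with 149 counts in its shallowest library.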

Other observations

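Pttg1, which encodes securin, the inhibitor of separase and a target of the APC/C, varied widely among the wild-type embryos. It had 6.75, 6.91, 7.22 and 6.66 CPM in deleted libraries, against 41.9, 23.3, 17.4 and 6.83 CPM in wild-type libraries. Wild-type replicate 4, whose animal number does not begin with 408, had the level of the deleted libraries. The gene was called lower (log2 fold change -1.69, SE 0.42, adjusted p = 0.00526 by edgeR's quasi-likelihood test). With those that do begin with 408 summed into 1 sample, the log2 fold change of Pttg1 was -1.236 (adjusted p = 0.0233).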
